A study of Mus musculus with 2 samples.

Results

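The growth hormone, STAT5 and IGF1 axis was followed at the level of messenger RNA through 10 genes in liver of fenofibrate-fed mice. The genes were the receptor gene Ghr, the transcription factors Stat5a and Stat5b, the feedback inhibitors Cish, Socs1, Socs2 and Socs3, and the output genes Igf1, Igfals and Hsd3b5. They were taken by name, and all probe sets with 1 of these symbols were used, which gave 24 probe sets of the 45037 on the array that are not controls. All 10 genes had a probe set, among 18193 named genes. Both groups were 8-week-old males of strain 129SvEJ on chow with 0.2% fenofibrate, given over 7 days. Wild-type mice carried Ppara, the gene of the nuclear receptor that fenofibrate activates, and Ppara-null mice were homozygous for its disruption (pparalpha -/- in the labels). Each genotype is 1 array of RNA combined from 3 mice, so no value below has a replicate check and no test was possible. Mice without the drug were not analysed here, so a difference between genotypes joins what was present before treatment with what the drug did.

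Growth hormone from the pituitary binds GHR on hepatocytes, and the receptor-bound kinase JAK2 then phosphorylates STAT5. STAT5B, the main form in hepatocytes, enters the nucleus and binds sites with the letters TTCNNNGAA near genes that include Igf1, Igfals, Cish and Socs2. The proteins CISH and SOCS2 return to the receptor and limit the signal. In rodents the hormone is released in pulses in males and more steadily in females, and male pulses keep up a set of male-biased liver genes to which Hsd3b5 belongs.

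Ppara itself, the targeted gene, gave wild-type signals of 7957, 5833 and 4312 and null signals of 3414, 2953 and 1551 at its 3 probe sets. It was lower in the null each time, with signals of 1551 or more remaining there; whether these probes lie in the disrupted part was not tested, so they check the labels only in part. Signals are in the arbitrary units of the deposited table, and each array's median, 287.8 for wild type and 269.4 for null, served as its floor. A probe set under its floor on 1 array gives only a bound, and a gene is represented by its brightest probe set unless stated. Across 10060 genes above the floor on both arrays log2 ratios of wild type over null had a median of -0.02, and the middle 90% lay between -0.78 and 0.88. Probe sets of 1 gene differed in log2 ratio with a pooled SD of 0.42 on these arrays (0.32 among the brightest and 0.52 among the dimmest of 3 equal classes), which leaves out differences between mice and pools. All 18 hybridization controls, added to the samples in known amounts, were lower on the wild-type array. Scaling to them added 0.38 to every log2 ratio, and signs given below are those of the deposited scaling unless this is named. The ratio of 3' to 5' signal was 1.89 in wild type and 2.27 in null for Actb, and 0.68 and 0.74 for Gapdh.

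Of the 10 genes, 1 was at least 2-fold apart between the genotypes. Hsd3b5 was lower in wild type, and 0 genes were at least 2-fold higher. Over all 13041 genes measured on at least 1 array, 4.99% passed 2-fold on the higher side and 2.80% on the lower, so 1 of 10 is too small a count to set apart from this background. Log2 ratios were negative for 6 of the 10 genes and positive for 4, with a median of -0.02, the same as for all genes measured on both arrays. Ghr, Stat5a, Socs2 and Hsd3b5 lay on the lower side, Stat5b, Socs1, Socs3 and Cish on the higher, and Igf1 and Igfals near 0.

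**Figure D1:**
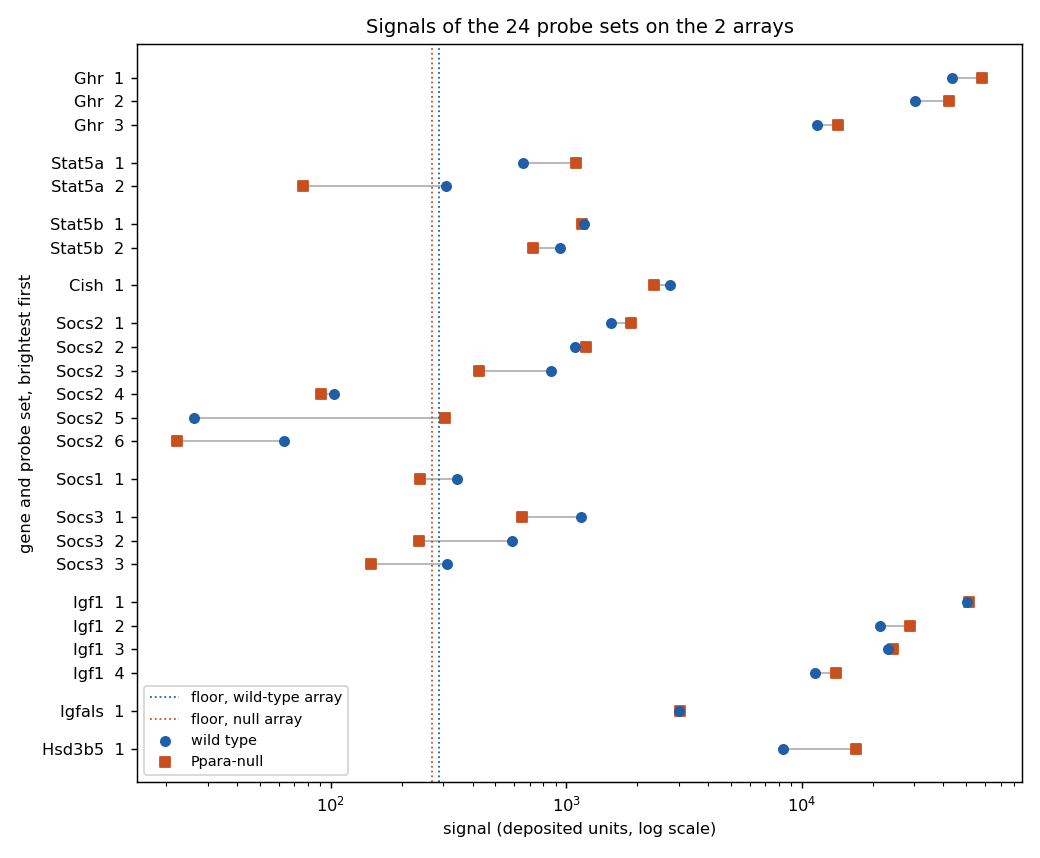
Signal of each of the 24 probe sets (log scale, deposited units) in wild type (circles) and Ppara-null (squares), with a row for each probe set, numbered from the brightest within a gene. Dotted lines are the floors of 287.8 and 269.4. The 3 Ghr and 4 Igf1 probe sets lie far above the floors with wild type on the left each time, while Socs1 and several probe sets of Stat5a, Socs2 and Socs3 reach below them.

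Ghr encodes the hormone's receptor and, through an alternative transcript in mice, its circulating binding protein. Its brightest probe set (1417962_s_at) read 43317 in wild type against 58417 in null, a log2 ratio of -0.43. The second gave 30181 and 42224 (-0.48), and the third gave 11568 and 14322 (-0.31). All 3 were thus lower in wild type, by 1.35-fold, 1.40-fold and 1.24-fold. Their mean log2 ratio was -0.41 ± 0.09 (SD, n = 3 probe sets of 1 pair of arrays). The difference lay inside the middle 90% of the genes of like brightness, which ran from -0.68 to 0.83, and 17.1% of genes measured on both arrays had a ratio as low or lower. Ghr stayed negative under all 10 alternatives run for its ratio, at -0.05 after scaling to the hybridization controls.

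The transcription factors Stat5a and Stat5b are products of neighbouring genes and share most of their protein sequence. For Stat5b, 1 probe set (1422103_a_at) gave 1191 in wild type and 1162 in null, and the other gave 940 and 719, log2 ratios of 0.04 and 0.39. Both were higher in wild type, the brighter by almost nothing, and the gap between them was within the scatter of probe sets of 1 gene. For Stat5a, the brighter probe set (1421469_a_at) gave 654 and 1100, a log2 ratio of -0.75, and 5.53% of genes had a ratio as low or lower. The second Stat5a probe set pointed the other way, with 309 in wild type and 75.8 in null. Its null signal was under the floor and its wild-type signal just over it, which gives a bound of at least 1.15-fold higher in wild type. It had no direction with floors at the brightest Bacillus controls (317 and 422, probe sets for transcripts that should be absent). The direction of Stat5a therefore rested on 1 probe set of 2, and with the median over both the log2 ratio was -0.28.

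Among the feedback inhibitors, Cish differed little between the genotypes and the probe sets of Socs2 disagreed. Cish, whose protein binds the activated receptor, has a single probe set (1448724_at), which gave 2758 in wild type and 2356 in null, 1.17-fold higher in wild type. Its log2 ratio of 0.23 was positive under every alternative run for it. Socs2 encodes the main brake on growth hormone action on body size and has 6 probe sets. The 2 brightest gave 1544 against 1878 and 1087 against 1207, log2 ratios of -0.28 and -0.15. The next (1442586_at) read 864 in wild type against 427 in null, with a log2 ratio of 1.02 in the other direction. The 3 remaining probe sets were dim. Of these, 1 gave 26.1 in wild type and 305 in null, and 2 were under the floor on both arrays (103 against 90.5, and 63.4 against 22.3). Log2 ratios of the 3 Socs2 probe sets above both floors had an SD of 0.72, more than the 0.42 pooled over genes, and no single direction can be given for Socs2. The sign of its brightest probe set turned after scaling to the hybridization controls, to 0.10.

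Socs1 and Socs3 encode inhibitors best known for interferon and IL-6 signalling, and growth hormone can also raise both. Socs1 (1450446_a_at) gave 343 in wild type and 240 in null, which was under the floor, so it was at least 1.27-fold higher in wild type. Both signals lay near the floors, and with floors at the Bacillus controls Socs1 had no direction. Socs3 was higher in wild type at all of its 3 probe sets. The brightest (1455899_x_at) gave 1150 and 646, or 1.78-fold. The second gave 586 and 237 (at least 2.17-fold), and the third 310 and 148 (at least 1.15-fold), both with null under the floor. The suffix _x_at of 2 of these marks probes that can bind other transcripts, and without such probe sets Socs3 was represented by the second and passed 2-fold. With floors at the Bacillus controls that second probe set was at least 1.39-fold higher and the third had no direction. Of all genes measured on both arrays, 5.71% had a ratio as high as the 0.83 of the brightest Socs3 probe set, and genes of like brightness reached 0.90 at their 95th percentile.

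The windows around the RefSeq starts of these genes were read for the STAT5-type letters TTCNNNGAA, which read the same on both strands. Windows of 250 bases before and 50 after a start, in build GRCm38.p6, were at hand for 9 of the 10 genes (14 windows, since some genes have several starts). The letters stood in 4 windows of 3 genes, Cish, Socs3 and Igfals, and in 8.30% of all 32851 windows of the table. Of all genes with a window, 9.55% had a match. The stretches that hold them are printed because they lie at genes the STAT5 pathway is known to act on, with the 9 matching bases in capitals. A match describes letters and no site of binding.
Cish, chr9:107296654-107296683, plus strand: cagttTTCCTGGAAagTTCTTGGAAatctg
Socs3, chr11:117969502-117969530, minus strand: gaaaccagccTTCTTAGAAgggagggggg
Igfals, first start, chr17:24877598-24877626, plus strand: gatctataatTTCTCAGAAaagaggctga
Igfals, second start, chr17:24878163-24878191, plus strand: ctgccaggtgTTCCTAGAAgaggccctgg
In Cish the letters occurred 2 times, beginning at positions 1 and 12 counted from the start of transcription. In Socs3 they began at -154, and in Igfals at -236 and -58 of its starts. A direct repeat of AGGTCA with 1 base between, the type of site PPARα binds with its partner RXR, was found on neither strand of the 14 windows and in 0.040% of all windows. Exact matches are so rare that their absence from 14 windows says nothing about these genes. The genes with TTCNNNGAA in a window had log2 ratios of 0.23 (Cish), 0.83 (Socs3) and -0.02 (Igfals).

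Igf1 and Igfals, whose products circulate in 1 complex, had nearly equal signals in both genotypes. The brightest Igf1 probe set (1452014_a_at) read 50152 in wild type against 51188 in null, a log2 ratio of -0.03. The second gave 21504 and 28830 (-0.42), the third 23329 and 24460 (-0.07), and the fourth 11358 and 13959 (-0.30). All 4 were lower in wild type, with a mean of -0.20 ± 0.19 (SD, n = 4 probe sets of 1 pair of arrays). None reached 1.5-fold, and the spread among them was within the scatter of probe sets of bright genes. Igfals, which encodes the acid-labile subunit that holds IGF1 and IGFBP3 in plasma, gave 3002 in wild type and 3040 in null at its single probe set (1422826_at). Its log2 ratio of -0.02 stood at the middle of all genes, with 50.5% as low or lower. The signs of Igf1 and Igfals turned after scaling to the hybridization controls, to 0.35 and 0.36, beside a median over all measured genes of 0.38 on that scale. Over 11 settings, the main one included, Igf1 was negative in 9 and Igfals in 7.

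Hsd3b5 encodes a 3-beta-hydroxysteroid dehydrogenase isoform of adult male mouse liver, which reduces 3-ketosteroids. Its only probe set (1420531_at) gave 8339 in wild type and 16975 in null, so wild type had 49.1% of the null signal, or was 2.04-fold lower. Both signals were far over the floors, at 29.0 and 63.0 times them. The log2 ratio of -1.03 was the lowest of the 10 genes. Of the 10060 genes measured on both arrays, 198 (1.97%) were as low or lower, and for genes of like brightness the 5th percentile was -0.68. The difference was more than the 0.32 by which probe sets of bright genes scattered, but rests on a single probe set just past the 2-fold line. It was under 2-fold after loess removal of the signal-dependent trend and after scaling to the hybridization controls, where the log2 ratio was -0.65, and negative in every alternative run.

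**Figure D2:**
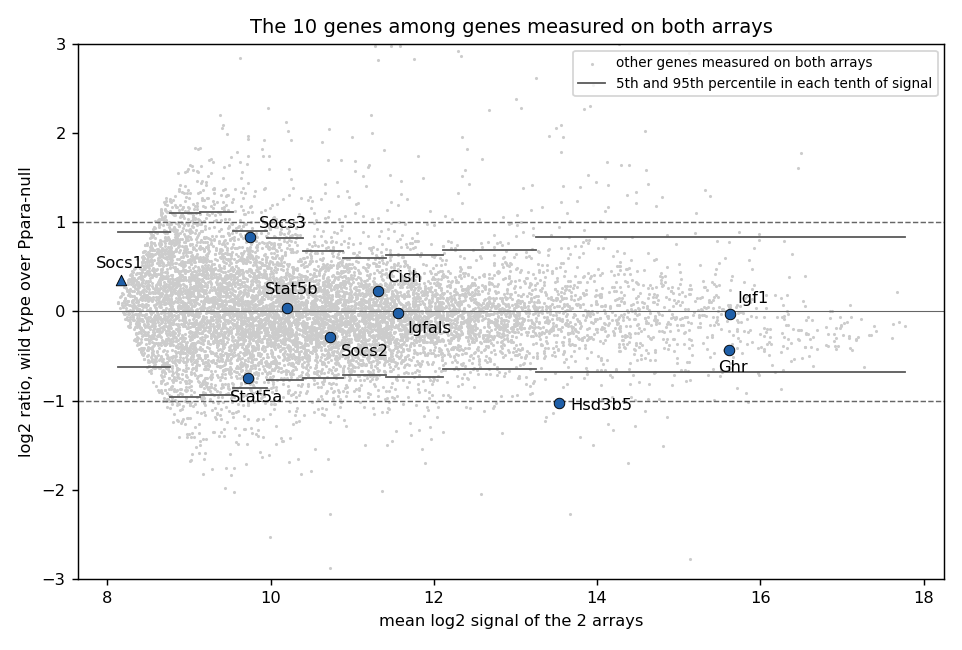
Log2 ratio of wild type over Ppara-null against mean log2 signal for genes measured on both arrays (grey), with the 10 genes named (Socs1, a triangle, is a bound). Short lines mark the 5th and 95th percentile in each of 10 equal classes of signal and dashed lines 2-fold; 11 genes lie outside the plotted range of 3 on the log2 scale. Of the 9 genes measured on both arrays, Hsd3b5 alone lies outside the lines of its class, at -1.03.

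Related genes were described in 8 lists with 108 genes, of which 88 were measured. Of these, 5 (5.68%) passed 2-fold on the higher side in wild type and 5 (5.68%) on the lower, beside 4.99% and 2.80% of all measured genes. With the control scaling, 0 of the list genes were at least 2-fold lower, beside 0.84% of all measured genes. As deposited, the median log2 ratio of the list genes was -0.22. As a background for the counts of negative ratios below, 52.2% of all genes measured on both arrays were negative.

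The IGF binding proteins, which carry IGF1 in plasma and tissue and set its half-life and access to receptors, included genes on both sides of 2-fold. Of 13 measured genes of IGF ligands, binding proteins and receptors, 2 passed 2-fold on the higher side and 1 on the lower. Their median log2 ratio was -0.26, or 0.12 with the control scaling. Igfbp2 gave 26863 in wild type and 9841 in null, 2.73-fold higher. Igfbp1, a binding protein raised by fasting and lowered by insulin, gave 14484 and 35307, 2.44-fold lower in wild type. The 2 therefore stood apart in opposite directions, each at a single probe set with signals far above the floors. Igfbp6 was 2.09-fold higher (606 against 290), but in null it did not reach the Bacillus controls, and with floors set by them it was at least 1.44-fold higher. Igfbp3, the partner of Igfals in plasma, gave 1896 and 2286 (log2 ratio -0.27). Igfbp4 gave 51459 and 66112 (-0.36), and its 5 other probe sets had the same sign. The receptor genes Igf1r and Insr had log2 ratios of -0.18 and -0.02, each with another probe set of the opposite sign. These last genes were named for their place in the pathway, after their values were seen.

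Other genes of the signal between the receptor and STAT5 showed no difference of 2-fold. Of 17 measured, 0 passed 2-fold in either direction, 12 had negative log2 ratios, and the list's median was -0.16 (0.22 with the control scaling). Pik3r1, a subunit of phosphoinositide 3-kinase, gave 4048 in wild type and 4430 in null (-0.13), and the adaptor gene Grb14 gave 3443 and 5490 (-0.67). Jak2, the kinase bound to the receptor, chosen for its role, gave 1495 and 2124 (-0.51) at its brighter probe set and 568 and 599 (-0.08) at the other. Among 10 measured transcription regulators of hormone-dependent liver genes, 0 passed 2-fold upward and 1 downward (median -0.26, or 0.12 with the control scaling). Cux2, a repressor of male-biased genes found in female liver, gave 264 in wild type and 583 in null and was at least 2.03-fold lower, or at least 1.84-fold with the floor at the Bacillus control. Its other probe sets were under the floor on both arrays (27.8 against 185, and 48.5 against 28.5). With median centring or the control scaling 0 genes of this list passed 2-fold downward, beside 2.52% and 0.84% of all measured genes. The repressor gene Bcl6, chosen for its known link to STAT5, gave 815 and 1201 (-0.56) and at its other probe set 308 and 579 (-0.91).

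Hsd3b5 was then set beside genes that share its sex bias or its family. Of 13 measured male-biased genes, 0 passed 2-fold upward and 2 downward, 9 had negative log2 ratios, and the median was -0.26 (0.12 with the control scaling). The oxysterol hydroxylase gene Cyp7b1 gave 41307 in wild type and 83767 in null, 2.03-fold lower, and its other probe set above the floors gave 23089 and 54879. With median centring this gene was just under 2-fold. With the control scaling 0 male-biased genes were 2-fold lower and 2 were at least 2-fold higher, beside 0.84% and 13.5% of all measured genes. The complement regulator gene Susd4 gave 1124 and 2406, 2.14-fold lower, with 838 and 2079 at its other probe set. Male-biased genes did not all lie on this side. The elongase gene Elovl3 gave 11923 in wild type and 6428 in null (0.89), and the omega-hydroxylase gene Cyp4a12a gave 59742 and 39416 (0.60). The major urinary protein gene Mup3 gave 127080 and 196333 (-0.63), and the transporter gene Slco1a1 gave 26988 and 36609 (-0.44), both named after their values were seen, as were Elovl3 and Cyp4a12a. The Mup3 probe set ends in _x_at, so other transcripts may add to its signal. Of 9 measured female-biased genes, 2 passed 2-fold upward and 0 downward. These 2 were Acot3, an acyl-CoA thioesterase gene, at 7.60-fold (13874 against 1825), and Hao2, a hydroxyacid oxidase gene, at least 5.78-fold higher (1558 against 211), or at least 3.69-fold with floors at the Bacillus controls. The list median was 0.00 (0.38 with the control scaling), the value set for Cyp2b13, whose bound gave no direction. Only 5 of the 9 genes were above both floors. With floors at the Bacillus controls or at the 75th percentile the median was 0.75. With the control scaling 4 genes of the list passed 2-fold upward, beside 13.5% of all measured genes. The only Acot3 probe set ends in _s_at, which marks probes shared by several transcripts, and without such probe sets 1 gene of the list passed 2-fold upward. The female-specific Cyp2b9, Cyp2b13 and Cyp3a44 were under the floor in wild type and just over it in null, with wild-type signals of 256, 66.6 and 242 and null signals of 300, 279 and 341. Within its own family, Hsd3b2 was 2.55-fold lower in wild type (2779 against 7085), while Hsd3b3 (8028 against 7211) and Hsd3b7 (31346 against 25681) had log2 ratios of 0.15 and 0.29. Genes of this family are close in sequence and the array may not separate them.

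**Figure D3:**
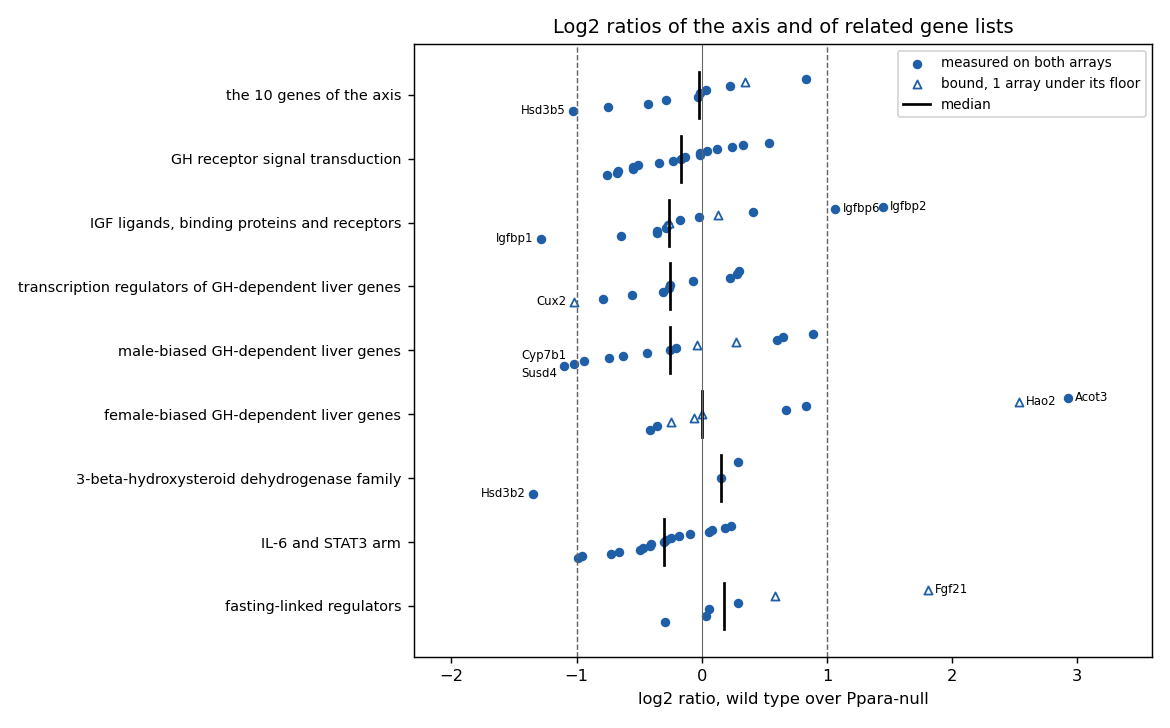
Log2 ratio of wild type over Ppara-null for the measured genes of the axis and of 8 related lists, 1 mark per gene (open triangles are bounds) with the list median as a black bar. Dashed lines mark 2-fold, and genes past them are named. The axis has 1 gene past 2-fold, Hsd3b5, and the IGF list has Igfbp1 on the lower side and Igfbp2 and Igfbp6 on the higher.

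The IL-6 pathway, which Socs3 restrains, held no measured gene past 2-fold in either direction as deposited, and 1 lower gene after quantile normalization. All 17 genes of the IL-6 and STAT3 arm were measured, 13 had negative log2 ratios, and the median was -0.30 (0.08 with the control scaling). The fibrinogen genes Fgb and Fga had ratios of -0.30 and -0.18. The receptor gene Lifr was nearest to 2-fold, with 17881 in wild type and 35423 in null (-0.99), and its second probe set gave 4374 and 8897 (-1.02). Stat3, chosen for its role, gave 2750 in wild type and 4405 in null (-0.68), and 2087 and 2821 (-0.43) at its second probe set. A dim probe set gave 539 and 126 (null under the floor), and another 53.1 and 282 (wild type under the floor). Of 6 fasting-linked regulators, Fgf21, a liver hormone that can blunt growth hormone signalling, was at least 3.50-fold higher (942 against 169), or at least 2.23-fold with floors at the Bacillus controls. With floors at the 75th percentile 0 genes of the list passed 2-fold. The other 5 were not called at 2-fold, and the list median was 0.18. For Lepr (404 in wild type against 162 in null, under the floor) the ratio is only a bound, so 2-fold is not excluded. Dimmer Lepr probe sets disagreed in direction (304 against 36.4, and 63.5 against 338). With the floor at the 25th percentile or with no floor, 2 genes of the list passed 2-fold upward, where more of all genes passed too.

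Hepatocyte markers were bright on both arrays, and levels of other cell types were read beside the axis because less RNA per cell and fewer cells of a type cannot be told apart in whole liver. All 7 measured hepatocyte markers were under 2-fold with negative log2 ratios (median -0.26, or 0.12 with the control scaling), and Alb gave 192642 in wild type and 212369 in null. Of 7 measured Kupffer cell and macrophage markers, 6 had negative log2 ratios. Their median was -0.63 (-0.25 with the control scaling) and their summed signal 15541 in wild type against 22929 in null. Cd5l, a macrophage gene, was 2.12-fold lower (1910 against 4052), and Marco was under the floor on both arrays. Endothelial and stellate markers had medians of 0.07 and -0.10, and red cell and pancreatic acinar markers of -0.72 and -0.83 over 3 and 2 measured genes. Of these lists, the endothelial Pecam1 was at least 2.36-fold higher in wild type (637 against 228, or at least 1.51-fold with floors at the Bacillus controls) and the acinar Cela1 was 2.03-fold lower (2934 against 5948). Cholangiocyte and lymphocyte markers were measured for 3 of 5 and 3 of 6 genes, and adipocyte markers were under the floor. The lymphocyte median was -0.42. Its leukocyte gene Ptprc was 2.26-fold higher in wild type (823 against 364), or at least 1.95-fold with floors at the Bacillus controls. The other measured lymphocyte markers, Cd8a (461 against 829) and Nkg7 (42.4, under the floor, against 385), were lower in wild type. Of 4 measured skeletal muscle markers, Acta1 and Tnnt3 passed 2-fold on the higher side, and with floors at the Bacillus controls they were at least 2.90-fold and 1.30-fold higher. Ckm gave 422 against 308 and Mylpf 300 against 368. The list's summed signal, which includes signals under the floor, was 2772 against 1035. The part of these differences in the ratios of the axis was not tested.

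**Figure D4:**
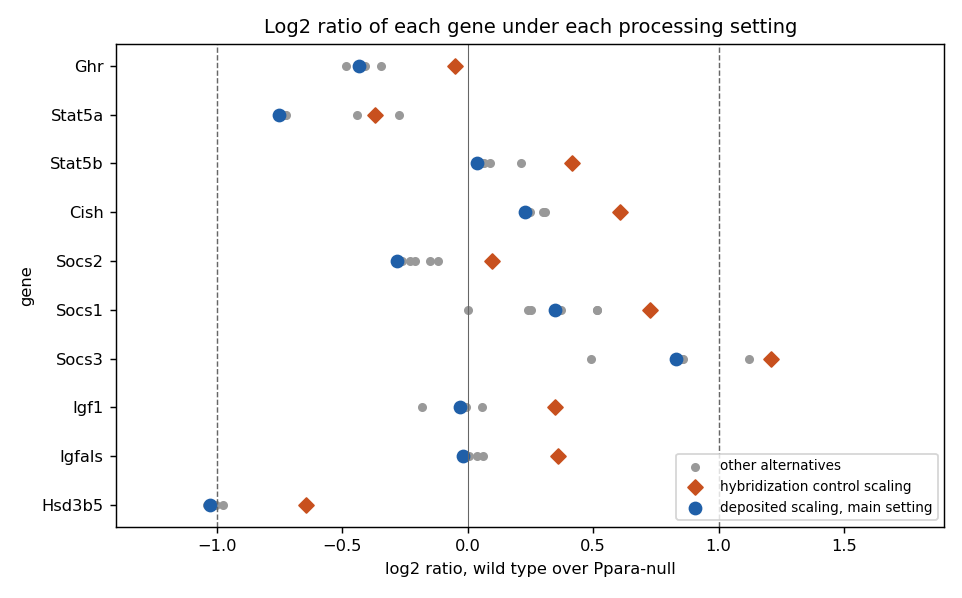
Log2 ratio of wild type over Ppara-null for each of the 10 genes under the main setting (large circles), scaling to the hybridization controls (diamonds) and the other alternatives (small circles). Dashed lines mark 2-fold. Ghr, Stat5a and Hsd3b5 are below 0 in every setting that was run, while Igf1, Igfals and Socs2 cross 0.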

How the data were processed

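Liver RNA was measured on 1 short oligonucleotide array per genotype, each with a pool of 3 mice. The authors deposited 1 linear signal intensity per probe set. Per the labels, the statistical algorithm and a scaling target of 1000 were used. Both samples carry the same settings text, scaling factor included, so 1 of them may not hold its own. No software version is given in the sources used here. The number of arrays limits the precision.

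Gene symbols came from the platform annotation of 2016. Of 45037 probe sets that are not controls, 34945 had 1 symbol, 932 several and 9160 none, and 0 of those with several named a gene of the axis. Gene identifiers matched RefSeq (GRCm38.p6) for 34741 probe sets. Signals under the median of their array were raised to it, log2 ratios of wild type over null were taken, and each gene took the values of its brightest probe set (mean of log2 signals). A bound that fell on the wrong side of 1-fold because the floors differ (171 genes) was set to a log2 ratio of 0. Genes were called at 2-fold, since 1 array per group allows no test. Python 3.11.15 with numpy 2.4.6, pandas 2.3.3 and statsmodels 0.14.6 was used, and the calling was tested on simulated data. The members and gene lists were chosen with earlier results of these data known. A further gene list is not reported here. From the lists, genes past 2-fold were named, or the 2 brightest where none was, and all other list and marker genes were named after their values were seen.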

Additional observations from a re-analysis of the deposited data

How the results depend on the processing

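Of 99 log2 ratios of the 10 genes under alternatives, 98 moved by less than the 0.42 SD between probe sets of a gene. The exception was Stat5a with the median over probe sets (-0.28). Median centring and the control scaling add 0.02 and 0.38 to every ratio, so neither could pass 0.42 for any gene. The turned signs of Igf1, Igfals and Socs2 with the control scaling are thus among the 98. Changed floors could not move genes whose brightest probe set lay above every floor, such as Ghr, Igf1 and Hsd3b5. The settings on probe sets could not move genes with a single probe set, such as Cish and Igfals. The count of 98 was therefore largely fixed in advance and is no measure of how firm the ratios are. The count of 1 gene lower was 0 with loess, with scaling to the hybridization controls and at 3-fold, and 2 at 1.5-fold, where Stat5a joined Hsd3b5. The count of 0 genes higher was 1, Socs3 each time, with that control scaling, at 1.5-fold, and when the _x_at and _s_at probe sets were dropped. Among the 88 measured list genes, 5 higher and 5 lower became 9 and 0 with the control scaling, where 13.5% and 0.84% of all measured genes passed. Median centring left 3 lower, beside 2.52% of all measured genes. A floor at the 25th percentile gave 8 higher, beside 14.0% of all genes measured with it, and no floor gave 9, beside 17.0%. A floor at the 75th percentile gave 2 higher and 4 lower, beside 2.12% and 1.33%, and left 9 of the 10 genes of the axis measured. The higher and lower counts were 11 and 17 at 1.5-fold, beside 14.76% and 11.03% of all measured genes. At 3-fold they were 3 and 0, beside 1.01% and 0.44%. The shares at 1.5-fold are also the background for the axis, where Socs3 was higher and Stat5a and Hsd3b5 lower. Over all genes, higher calls made up 64.1% as deposited, 94.2% with the control scaling and 49.5% with floors at the Bacillus controls. Of the 24 probe sets, 7 had a signal under the brightest Bacillus control on at least 1 array, and they carry the least certain ratios. No paired analysis was possible because each group has 1 array, and leaving out an array was impossible for the same reason.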
